A study of Mus musculus with 4 samples.

Results

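The cells described here are epithelial cells of the LATS1/2-KO mammary gland that carried transcripts of dividing cells. A barcode was taken as epithelial if it held more than 500 genes, under 20% mitochondrial UMIs (unique molecular identifiers, 1 for each captured transcript), at least 10 UMIs of the luminal keratins *Krt8* plus *Krt18* per 10000 UMIs, under 0.5% of UMIs from *Col1a1*, *Col1a2* and *Col3a1*, and no *Ptprc*. Among these cells, those with at least 4 of 8 genes detected (*Ube2c*, *Birc5*, *Cdk1*, *Cdca8*, *Ccnb1*, *Cdc20*, *Top2a* and *Mki67*) are called cycling. The rule found 1213 cycling cells among the 7060 epithelial cells of both LATS1/2-KO mice (17.2%) and the 18200 cells kept from all 4 libraries. Replicate 1 gave 709 of them and replicate 2 gave 504. They were compared with the 3901 LATS1/2-KO epithelial cells in which 0 of the 8 genes were detected (1876 and 2025), and 1946 cells with 1 to 3 of the 8 lay between these states. Pairs of values without a name are given in the order replicate 1, replicate 2.

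The series holds mammary glands of 4 adult nulliparous mice, whose glands were pooled within a mouse and sequenced as 1 library of live-sorted single cells with the 10x Genomics 3' v3 chemistry. The 2 CTL mice were Lats1f/f;Lats2f/f with 1 R26-lsl-EYFP allele and no Cre, so that their *Lats1* and *Lats2* genes were floxed and intact. The 2 LATS1/2-KO mice carried the same floxed alleles with Krt8-CreERT2, a tamoxifen-inducible Cre under the promoter of the luminal keratin gene *Krt8*, and the R26-lsl-EYFP reporter, heterozygous in replicate 1 and homozygous in replicate 2. All 4 mice received 2 mg tamoxifen intraperitoneally on 5 consecutive days and were collected 7 days after the last dose. Cre and the deletion of *Lats1/2* occur together in this design and cannot be told apart. Cre acts in luminal cells and need not recombine each of them, so a LATS1/2-KO library can hold recombined and unrecombined cells.

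LATS1 and LATS2 are the kinases of the Hippo pathway that phosphorylate the coactivators YAP and TAZ and keep them out of the nucleus. Without them, YAP and TAZ bind TEAD factors and activate genes of growth, adhesion and secreted signals. Cells entering division first express the genes of DNA replication under E2F factors in G1 and S phase, and later, in G2 and mitosis, the genes of chromosome condensation, the spindle and cytokinesis, which are controlled by the MuvB complex with B-MYB and FOXM1. In the adult virgin mammary gland, few luminal cells divide, and hormone-receptor-positive luminal cells signal to their neighbours through secreted factors such as AREG.

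The kept cells held between 38792520 and 46810771 UMIs per library, and any pair of libraries shared 4 to 17 barcodes. Cycling cells were deeper than the cells they were compared with, with a median of 16270 and 20317.5 UMIs against 5330 and 5793 in cells with 0 of 8. Every cell was therefore thinned to 4000 UMIs before levels were compared, which kept 691 and 499 cycling cells and 1206 and 1378 cells with 0 of 8. Below 4000 UMIs, 18 and 5 cycling cells and 670 and 647 cells with 0 of 8 were left out. The levels of cells with 0 of 8 are thus those of the deeper cells of that state. At equal depth the median number of genes detected was 1765 and 1781 in cycling cells against 1704 and 1716. The cycling cells kept the epithelial marker *Epcam* at 2074 and 1815 CPM (UMI counts scaled to a common total), against 2479 and 2199 in the cells with 0 of 8. The 3' tags of *Lats1* and *Lats2* do not check the deletion: *Lats1* stood at 14.1 and 10.6 CPM in cycling cells and 23.7 and 26.7 in cells with 0 of 8, and *Lats2* at 20.4 and 23.8 against 28.7 and 34.3.

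The share of cycling cells was far larger in LATS1/2-KO than in CTL epithelium. By the same rule, 19 of 4432 epithelial cells were cycling in CTL replicate 1 (0.429%, exact binomial 95% interval 0.258 to 0.669) and 53 of 3224 in CTL replicate 2 (1.64%, 1.23 to 2.14). In LATS1/2-KO the shares were 19.0% (17.7 to 20.3) in replicate 1 and 15.2% (13.96 to 16.4) in replicate 2. The groups did not overlap, at 17.1 ± 2.70% in LATS1/2-KO and 1.04 ± 0.859% in CTL (SD, n = 2 mice each), a difference of 16.0 percentage points. With 2 mice against 2, the two-sided exact permutation test cannot give a p below 0.333, which is the value found. Because detection rises with depth, the 8 genes were also scored after thinning, and the shares were then 0.139% and 0.859% in CTL and 14.8% and 11.4% in LATS1/2-KO. At 2000 UMIs per cell the difference was 5.53 percentage points. The intervals cover counting error only, and a share of cells does not tell faster division from a longer time spent in the phases that express these genes.

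**Figure D1:**
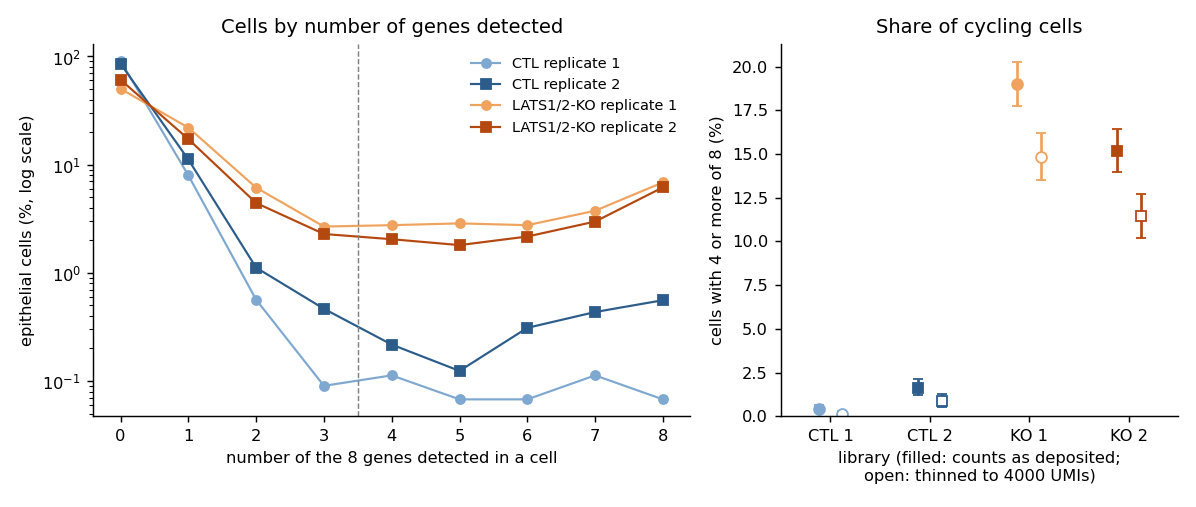
Left, percentage of epithelial cells (log scale) by the number of the 8 genes detected in a cell, for each of the 4 libraries, with the limit for cycling cells as a dashed line. Right, percentage of epithelial cells with 4 or more of 8 in each library with exact binomial 95% intervals, from deposited counts (filled) and from counts thinned to 4000 UMIs (open). Both LATS1/2-KO libraries lie above both CTL libraries, at 19.0% and 15.2% against 0.429% and 1.64%.

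Most cycling cells lay well inside the limit. All 8 genes were detected in 256 and 205 cells, the most frequent number among members in each mouse. Just inside the limit, 103 and 68 cells held 4 of 8, and just outside, 100 and 76 cells held 3 of 8. The median depth rose across this limit by little in replicate 1 (10811 UMIs with 3 of 8 and 11202 with 4) and fell in replicate 2 (17315.5 and 15187). In thinned cells, *Birc5* stood at 89.9 and 58.8 CPM with 3 of 8 and 170.2 and 87.3 with 4 of 8, and *Cdk1* at 81.5 and 36.8 CPM with 3 of 8 and 45.2 and 51.6 with 4 of 8. The rule itself shapes these levels, and of the 8 genes *Cdk1* in replicate 1 was the one lower with 4 of 8 than with 3.

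The 8 genes chose the cells, so their levels are a description and carry no test. *Ube2c*, the ubiquitin-conjugating enzyme of the anaphase-promoting complex, was detected in 79.4% and 79.2% of cycling cells before thinning and stood at 414 and 362 CPM after it. *Birc5* (survivin) and *Cdca8* (borealin), subunits of the chromosomal passenger complex, were detected in 89.8% and 91.7% and in 87.0% and 91.7% of cycling cells. *Cdk1*, the kinase that drives entry into mitosis, stood at 239.9 and 221 CPM, and its partner *Ccnb1* (cyclin B1) at 134 and 147 CPM. *Top2a*, the topoisomerase that untangles replicated DNA, stood at 250 and 242 CPM, *Mki67*, the proliferation antigen Ki-67, at 208 and 228 CPM, and *Cdc20*, the activator of the anaphase-promoting complex, at 159 and 162 CPM. Replicates 1 and 2 were close in each of the 8. In the cells with 0 of 8 each of them is 0 by the rule.

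The promoters of these genes show which sequence they share. The cell cycle genes homology region (CHR, the letters TTTGAA on either strand) is the element through which the MuvB complex binds promoters of late cell cycle genes. In RefSeq promoter windows of 300 bases (250 before and 50 after the start, GRCm38.p6), at least 1 CHR was found in 20.2% of 27025 genes, in 6 of the 8 genes of the rule and in 27 of 40 G2/M genes with a window (67.5%). It was found in 17 of 20 genes of the mitotic kinesins and spindle, and in 6 of 31 S phase genes (19.4%). The CCAAT box (CCAAT on either strand), which often lies beside a CHR, was found in 41.1% of all windows, 7 of the 8 genes of the rule, 30 of 40 G2/M genes and 22 of 31 S phase genes. An E2F site (TTTCCCGC or TTTGGCGC, either strand) was found in 1.80% of all windows, 10 of 31 S phase genes, 7 of 12 genes of origin licensing and the helicase, and 2 of 40 G2/M genes. The S phase and G2/M windows thus differed in CHR and E2F sites, while the share with a CCAAT box was similar (71.0% and 75%). Of the YAP/TAZ targets, 6 of 14 windows held a TEAD site (GGAATG, either strand; 16.6% of all windows). None of these motifs contains another, and a match is a description of the letters and not a binding site. The windows of 5 genes of the rule are shown from 120 bases before to 20 after the start, in the direction of transcription, with each CHR in capitals.
Cdk1 (GRCm38.p6, chr10:69352893-69353032, minus strand): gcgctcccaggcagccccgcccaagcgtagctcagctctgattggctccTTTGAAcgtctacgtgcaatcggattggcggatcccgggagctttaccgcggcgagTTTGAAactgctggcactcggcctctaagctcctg
Cdc20 (GRCm38.p6, chr4:118437324-118437463, minus strand): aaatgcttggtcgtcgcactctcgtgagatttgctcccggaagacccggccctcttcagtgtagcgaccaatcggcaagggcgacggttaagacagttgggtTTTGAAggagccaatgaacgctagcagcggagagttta
Ube2c (GRCm38.p6, chr2:164769809-164769948, plus strand): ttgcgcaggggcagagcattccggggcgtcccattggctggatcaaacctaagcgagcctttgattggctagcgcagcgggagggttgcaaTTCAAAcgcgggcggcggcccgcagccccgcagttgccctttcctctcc
Top2a (GRCm38.p6, chr11:99024170-99024309, minus strand): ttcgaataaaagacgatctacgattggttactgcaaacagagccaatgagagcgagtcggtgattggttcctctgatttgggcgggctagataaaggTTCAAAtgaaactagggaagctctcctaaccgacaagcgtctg
Mki67 (GRCm38.p6, chr7:135716360-135716499, minus strand): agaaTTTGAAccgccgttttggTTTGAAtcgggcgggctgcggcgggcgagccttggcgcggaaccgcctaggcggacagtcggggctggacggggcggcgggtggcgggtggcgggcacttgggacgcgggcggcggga

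Single cycling cells were scored for transcripts of S phase and of G2/M. Each thinned cell was given its summed UMIs of 44 S phase genes and of 49 G2/M genes that exclude the 8 of the rule. The medians over cycling cells were 9 S phase UMIs in both mice, and 23 and 24 G2/M UMIs, against 2 and 2 and 6 and 5 in cells with 0 of 8. With these medians as limits, 25.8% and 24.4% of cycling cells were high in S phase genes alone, 26.3% and 25.1% in G2/M genes alone, 25.5% and 25.7% in both, and 22.4% and 24.9% in neither. The 4 parts are near equal by construction of the limits if the sums are unrelated across cells, so no separation into S phase and G2/M cells was seen. The split cannot decide whether there is one, since S phase cells with few transcripts of the 8 genes are not among the members. Of the cells with 0 of 8, 99.3% and 99.7% were under both limits, which the rule also shapes. Cells with 1 to 3 of 8 reached the S phase limit in 6.17% and 5.31%, and the G2/M limit in 0.561% and 0.152%, which the rule shapes, since these cells were chosen for few transcripts of the 8 genes. At 4000 UMIs per cell, 1 UMI more or less moves many cells across a limit.

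**Figure D2:**
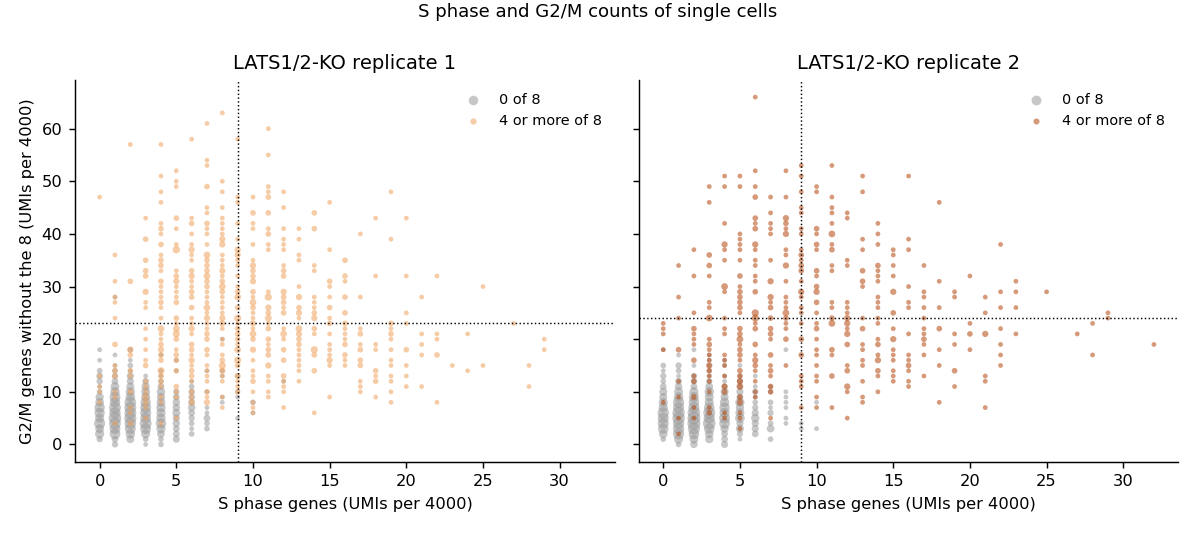
Summed UMIs of S phase genes (horizontal axis) and of G2/M genes without the 8 of the rule (vertical axis) in single LATS1/2-KO epithelial cells thinned to 4000 UMIs, in replicate 1 (left) and replicate 2 (right). Coloured points are cells with 4 or more of 8 and grey points cells with 0 of 8, with the point area growing with the number of cells at a position and dotted lines at the medians of the cycling cells. Grey cells crowd the lower left (99.3% and 99.7% under both limits), and cycling cells spread over all 4 fields.

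To ask what else distinguished these cells, the thinned counts were summed per mouse and state, and the 2 states were compared within mice with edgeR's quasi-likelihood test, with the mouse as block (n = 2 mice). Genes with a Benjamini-Hochberg adjusted p under 0.05 over all genes tested are called, levels are edgeR's TMM-scaled CPM, and differences are log2 fold changes of cycling against 0 of 8 with their SE. The SE comes from the fit, which shares information on dispersion across genes, and does not measure the spread between the 2 mice. Single mice can lie further apart than the SE, as their levels show. Of 11180 genes, 5518 were called (49.4%), 2832 higher (25.3%) and 2686 lower (24.0%) in cycling cells. With so large a share of all genes called, a call says little by itself, and sizes and levels in each mouse are given throughout. DESeq2 called 2077 genes (18.6%), and edgeR called 2410 of 8980 (26.8%) when both states were held to cells of 10000 to 20000 deposited UMIs, an alternative added after the depth difference had been seen. Cycling cells were still deeper in this window, with medians of 14835 and 16478 UMIs against 12243 and 13272. Where either of these ended a call or turned a direction for a gene named here, that is said beside it. A lower level in a sum can come from fewer cells that express a gene or from less RNA of it per cell, and the sums do not tell these apart.

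The machinery of DNA replication was higher in cycling cells, as the choice of cells makes likely, since its genes are expressed with those of the rule. Of the S phase genes tested, 43 of 43 were higher with a median log2 fold change of 2.74, where the median over all genes tested was -0.01. *Mcm5*, a subunit of the replicative helicase, stood at 62.7 and 78.4 CPM in cycling cells and 3.96 and 4.07 in cells with 0 of 8. *Uhrf1*, which recruits the maintenance DNA methyltransferase to replicated DNA, stood at 72.7 and 79.0 against 3.33 and 3.71 CPM (4.42 ± 0.21). All 17 genes of origin licensing and the helicase (median 2.55) and all 18 of nucleotide synthesis (median 1.66) were higher. Both lists share genes with the S phase list, such as *Mcm5* and *Rrm2*. Within nucleotide synthesis, thymidine kinase *Tk1* changed by 4.42 ± 0.17 and the ribonucleotide reductase subunit *Rrm2* by 4.90 ± 0.20, while *Impdh2* of guanine nucleotide synthesis changed by 1.2003 ± 0.12 and *Paics* of purine synthesis by 0.67 ± 0.11. All 11 genes of homologous recombination and the Fanconi pathway were higher (median 2.91). The smallest change among the S phase genes named was that of *Slbp*, which binds histone mRNA, at 0.43 ± 0.13, a call that DESeq2 did not make (adjusted p = 0.221). Of 16 histone genes tested, 15 were higher (median 3.85), although their transcripts mostly lack a poly(A) tail and are captured poorly by this chemistry. The linker histone *Hist1h1b* stood at 177 and 144 against 6.25 and 2.47 CPM, and *Hist1h2ap* at 476 and 65.3 against 22.7 and 2.47 CPM. The exception was *Hist1h1c*, a linker histone that is also expressed outside S phase, which was lower by edgeR (-0.30 ± 0.11) and not called by DESeq2 (adjusted p = 0.325). Histone genes of a family are near-identical, so reads can be split between copies.

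Lists of mitosis were higher as well, which the choice of cells makes likely, since their genes are expressed with those of the rule. These lists share genes, such as *Cenpf* and *Hmmr*, so their counts are not independent of each other. Of the G2/M genes tested, 46 of 47 were higher (median 4.28), as were 25 of 26 genes of the kinetochore and spindle checkpoint (4.52), all 22 of the mitotic kinesins and spindle (4.89), 15 of 16 mitotic kinases and phosphatases (4.60) and all 14 of condensin, cohesin and separase (2.65). *Cenpf*, a kinetochore protein that appears in G2, stood at 228 and 224 CPM in cycling cells and 2.50 and 2.83 in cells with 0 of 8 (6.38 ± 0.18). *Hmmr*, a spindle assembly factor, stood at 92.4 and 86.0 against 2.71 and 0.354 CPM, and *Racgap1*, a subunit of the centralspindlin complex of cytokinesis, at 104 and 126 against 2.50 and 1.24. In none of these genes did the levels of the 2 states overlap between mice, which the choice of cells also makes likely. The kinases *Aurkb*, *Plk1* and *Pbk* changed by 5.15 ± 0.25, 5.12 ± 0.27 and 5.74 ± 0.22. *Wee1*, the kinase that holds CDK1 inactive before mitosis, did not pass the test, at 34.5 and 24.3 CPM in cycling cells and 30.2 and 29.2 in cells with 0 of 8. *Zwint*, a kinetochore protein, did not pass either (-0.15 ± 0.13, edgeR adjusted p = 0.336). The condensin subunits *Smc2* and *Smc4* changed by 3.93 ± 0.14 and 2.73 ± 0.12, and the cohesin subunits, which cells also hold outside division, by less: *Smc1a* (1.21 ± 0.11) and *Smc3* (0.90 ± 0.11).

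Outside all lists, the genes with the largest increases among those with at least 50 UMIs included 2810417H13Rik, *Cdkn3*, *Cep55*, *Cit*, *Depdc1a*, *Iqgap3*, *Neil3*, *Sapcd2* and *Shcbp1*. Of these, *Cep55* and *Cit* act in the final cut between daughter cells. *Iqgap3* stood at 43.4 and 46.1 CPM in cycling cells and 0.833 and 1.06 in cells with 0 of 8, and *Cdkn3*, a phosphatase of CDKs, at 40.1 and 57.7 against 1.25 and 0.707. Those with the largest decreases included *Brinp1*, *Cxcl9*, *Gfra1*, *Gpx3*, *Hmcn1*, *Il17b*, *Muc16*, *Slfn5* and *Upk1b*. Among these, *Gpx3*, a secreted glutathione peroxidase, stood at 18.2 and 6.58 CPM in cycling cells against 469 and 111 (-4.54 ± 0.17). *Upk1b*, a uroplakin, stood at 1.11 and 1.01 against 22.3 and 24.7 CPM. *Gfra1* had no UMI in either cycling sum and 6.66 and 4.07 CPM in the others, and DESeq2 did not call it (adjusted p = 0.339).

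Regulators of the cycle moved less uniformly than its machinery. Of 16 transcription regulators of the cycle, 11 were higher and 3 lower (median 1.31), and DESeq2 called 7 and 1. *E2f1*, an activator of S phase genes, stood at 40.1 and 33.9 CPM in cycling cells and 6.87 and 4.95 in cells with 0 of 8, and *Foxm1*, an activator of mitotic genes, at 36.4 and 51.1 against 3.54 and 1.24. *Mybl2*, which encodes the B-MYB partner of MuvB, changed by 3.67 ± 0.32, and *E2f7*, a repressor of E2F targets in S phase, by 3.80 ± 0.40. *Myc* was lower, at 56.8 and 62.8 against 109 and 119.7 CPM (-0.93 ± 0.13, edgeR adjusted p = 3.51e-12, DESeq2 adjusted p = 7.36e-04). The retinoblastoma gene *Rb1* was lower by edgeR (-0.62 ± 0.14) and missed the threshold of DESeq2 (adjusted p = 0.0754) and of the fit on cells of 10000 to 20000 UMIs (edgeR adjusted p = 0.0944).

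Among the G1 genes, cyclin D1 was higher in both mice. *Ccnd1*, which encodes the cyclin that with CDK4 and CDK6 starts the cell cycle in G1, stood at 649 and 654 CPM in cycling cells against 178 and 137 in cells with 0 of 8 (2.05 ± 0.10, edgeR adjusted p = 6.14e-90, DESeq2 adjusted p = 5.13e-35). The states did not overlap, and the change was 1.27 between cells of 10000 to 20000 UMIs. *Ccne1* (cyclin E1), which acts after cyclin D at the start of S phase, changed by 2.89 ± 0.26, and *Cdk4* and *Cdk6* by 0.91 ± 0.11 and 0.99 ± 0.13, of which *Cdk6* was not called between cells of 10000 to 20000 UMIs (0.44). *Ccnd3* did not pass the test (-0.31 ± 0.15, edgeR adjusted p = 0.0660). In all, 6 of 9 G1 cyclins and CDKs were higher and 1 lower.

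Inhibitors of the cycle were split. Of 15 CDK inhibitors and genes of the p53 response, 5 were higher and 5 lower (median -0.05). Over all genes tested, 25.3% were higher and 24.0% lower. *Cdkn1a* (p21), the CDK inhibitor induced by p53, was lower, at 82.0 and 48.1 CPM in cycling cells against 201 and 212 (-1.66 ± 0.12, edgeR adjusted p = 1.52e-40). The antiproliferative genes *Btg2* and *Gadd45a* were lower as well, *Btg2* at 99.1 and 86.5 against 362 and 259 CPM and *Gadd45a* at 43.8 and 40.5 against 127 and 104. *Cdkn2d* (p19-INK4d), an inhibitor of CDK4 and CDK6 that peaks in S phase, was higher (1.36 ± 0.20). *Trp53* was higher by edgeR (0.40 ± 0.12) and not called by DESeq2 (adjusted p = 0.194).

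Genes of ribosome production were higher by about 1 log2 unit. Of 18 genes tested, 17 were higher (median 1.08), with medians of 0.97 between cells of 10000 to 20000 UMIs and 1.06 within *EYFP*-positive cells. *Npm1* (nucleophosmin) stood at 2208 and 2263 CPM in cycling cells against 912 and 818, and *Ncl* (nucleolin) at 1810.0 and 2115 against 804 and 767. The glycolysis genes moved less, with 9 of 14 higher and 2 lower (median 0.56), where 25.3% of all genes were higher and 24.0% lower. Between cells of 10000 to 20000 UMIs, 6 were higher and 1 lower (median 0.29). The median was 0.59 within *EYFP*-positive cells, and DESeq2 called 7 higher and 0 lower over all cells. *Pgam1* changed by 1.06 ± 0.10, *Eno1* by 0.97 ± 0.10 and lactate dehydrogenase *Ldha* by 0.87 ± 0.10.

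**Figure D3:**
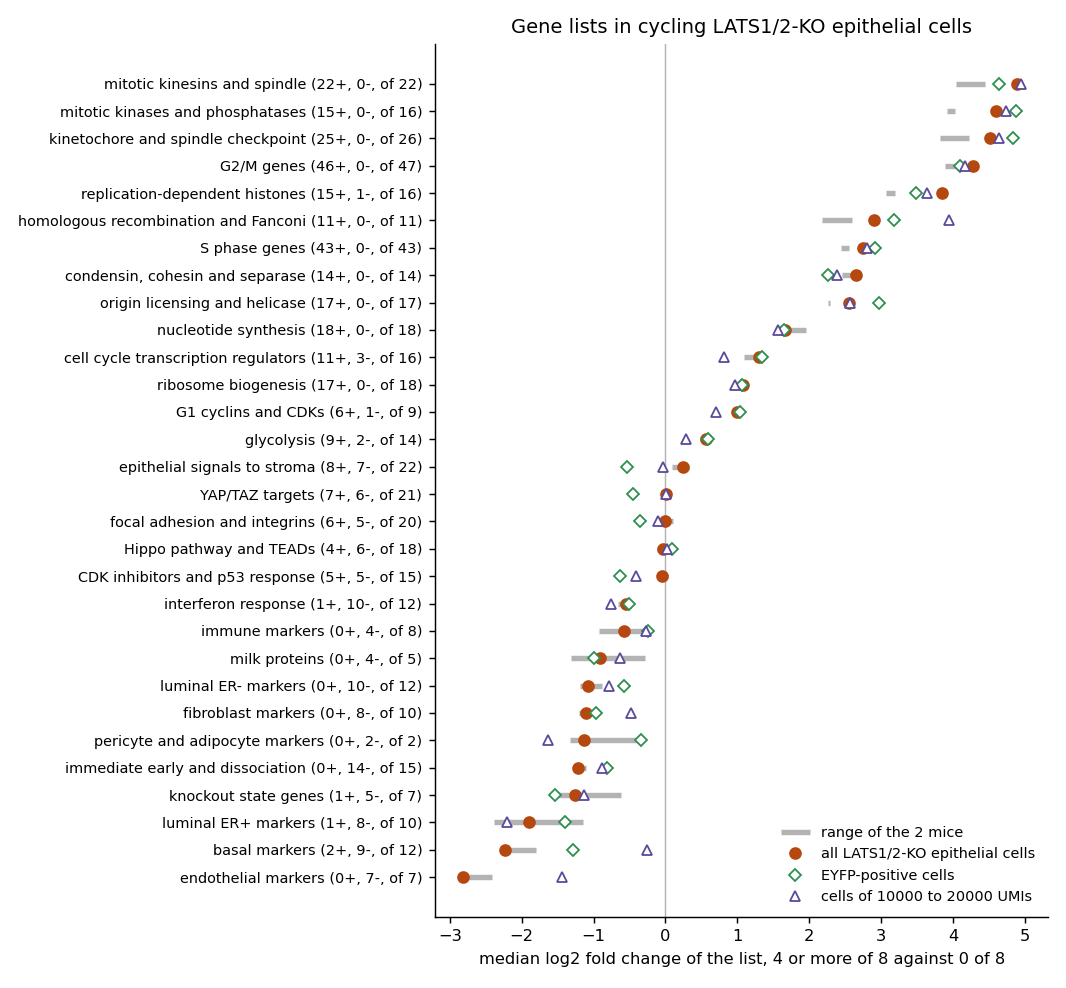
Median log2 fold change of each gene list between cells with 4 or more of 8 and cells with 0 of 8 in LATS1/2-KO epithelium, over all cells (filled circles), within EYFP-positive cells (open diamonds) and within cells of 10000 to 20000 UMIs (open triangles). Grey bars span the single-mouse medians, which carry a prior count and are smaller in size for rare genes, and labels give the genes called higher and lower of those tested. Lists of the cell cycle lie at the top with medians up to 4.89, ribosome biogenesis and glycolysis at 1.08 and 0.56, and lineage markers below 0.

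Most markers of the mature mammary lineages were lower in cycling cells than in cells with 0 of 8. Of the luminal ER- markers, which mark milk-fated luminal cells, 10 of 12 were lower and 0 higher (median -1.08). *Wfdc18*, a secreted whey acidic protein family member, stood at 2231 and 2094 CPM in cycling cells against 3918 and 5911. *Plet1* stood at 95.01 and 94.1 against 276 and 341 CPM (-1.69 ± 0.11), and the transferrin gene *Trf* at 94.3 and 134 against 236 and 489 (-1.61 ± 0.11). The casein gene *Csn3* was lower by edgeR (-0.65 ± 0.09) and not called by DESeq2 (adjusted p = 0.309). Of 5 milk protein genes tested, 4 were lower, among them *Mfge8*, a milk fat globule protein, at 454 and 443 against 927 and 1105 CPM.

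Genes of hormone-receptor-positive luminal cells were lower as well. Of 10 luminal ER+ markers, 8 were lower and 1 higher, with a median of -1.90 and single-mouse medians of -2.39 and -1.15, whose difference was not tested. *Prlr*, the prolactin receptor, stood at 56.0 and 40.0 CPM in cycling cells against 291 and 91.2, and the transcriptional coregulator *Cited1* at 11.9 and 12.7 against 77.0 and 28.1. The EGFR ligand *Areg* (amphiregulin) stood at 128 and 90.1 against 745 and 183 CPM (-1.88 ± 0.11), which DESeq2 did not call (adjusted p = 0.0559), and *Wnt4*, a target of progesterone signalling, at 35.3 and 42.0 against 151 and 88.6. Cells with at least 3 UMIs of *Esr1*, *Pgr*, *Prlr* and *Cited1* were 3.18% and 1.80% of cycling cells and 18.8% and 5.44% of cells with 0 of 8. Without these cells and the contractile cells described next, edgeR called 5483 genes. *S100a6*, which is on this list, was the exception at 0.30 ± 0.08, a call that DESeq2 did not make (adjusted p = 0.0532), and its value was -0.10 between cells of 10000 to 20000 UMIs.

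Basal genes were mostly lower, apart from *Krt14* and *Cav1*. Of 12 basal markers, 9 were lower and 2 higher (median -2.24), but between cells of 10000 to 20000 UMIs 7 could be tested, of which 1 was higher and 1 lower (median -0.26). *Krt5*, the keratin partner of *Krt14*, stood at 23.0 and 32.4 CPM in cycling cells and 152 and 125 in cells with 0 of 8 (-2.35 ± 0.15), and its difference between cells of 10000 to 20000 UMIs was -0.56 and not called (edgeR adjusted p = 0.103). The smooth muscle gene *Tagln* behaved likewise, with -2.13 ± 0.14 over all cells and -0.05 in that window. *Igfbp5*, an IGF-binding protein, was lower in both settings, at 73.9 and 148 against 489 and 804 CPM (-2.57 ± 0.11; -2.28 in that window). *Cav1* (caveolin-1) was higher, at 197 and 229 against 67.2 and 64.0 CPM (1.70 ± 0.11). Contractile cells, with at least 3 UMIs of *Acta2*, *Myh11*, *Mylk*, *Oxtr* and *Cnn1*, were 4.78% and 5.21% of cycling cells and 9.37% and 9.80% of cells with 0 of 8. The smooth muscle actin gene *Acta2* was lower (-0.81 ± 0.11), but stood at 0.20 without the contractile and hormone-receptor cells and was not called between cells of 10000 to 20000 UMIs.

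*Krt14*, the keratin of basal cells, was widespread in LATS1/2-KO epithelium selected on *Krt8* and *Krt18*. At 4000 UMIs, 83.8% (exact interval 80.8 to 86.5) and 79.4% (75.5 to 82.8) of cycling cells held a *Krt14* UMI, against 65.7% and 59.5% of cells with 1 to 3 of 8 and 57.1% and 50.7% of cells with 0 of 8. In CTL epithelium the share was 1.83% and 1.26% with 0 of 8, and 0 of 19 and 0 of 53 cycling cells (intervals up to 17.6% and 6.72%). The share among non-epithelial cells of the LATS1/2-KO libraries, which include contractile cells, was 39.9% and 29.5%. Between cells of 10000 to 20000 UMIs the shares stood at 82.8% and 75% of cycling cells against 56.2% and 53.3%. The summed level differed less than the share: 1648 and 1343 CPM in cycling cells against 1353 and 1008 (0.35 ± 0.09, with cycling and other cells overlapping across mice), with -0.13 between cells of 10000 to 20000 UMIs and -0.64 ± 0.08 within *EYFP*-positive cells. More cycling cells thus held *Krt14*, without a level that was higher in every setting.

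The reporter marks cells in which Cre had acted. *EYFP* transcripts are made once Cre removes the stop cassette, and a cell without an *EYFP* UMI may still be recombined. At 4000 UMIs an *EYFP* UMI was found in 24.6% (21.4 to 28.0) of cycling cells of replicate 1, with 1 reporter allele, and 34.7% (30.5 to 39.0) of replicate 2, with 2 alleles. The share was 15.4% and 22.0% with 1 to 3 of 8 and 11.5% (9.78 to 13.5) and 16.6% (14.7 to 18.7) with 0 of 8. In CTL cells with 0 of 8, which lack Cre, an *EYFP* UMI was found in 0.0931% and 0.163%. It was found in 3.099% and 2.50% of non-epithelial cells of the LATS1/2-KO libraries (median 6902 and 6339.5 UMIs, against 16725 and 20515 in cycling cells). These are all cells that failed the epithelial rule, so they can include recombined epithelial cells. Both an *EYFP* and a *Krt14* UMI were found in 2.07% and 1.30% of them. The difference between cycling cells and cells with 0 of 8 was 15.6 ± 3.52 percentage points (SD, n = 2 mice), higher in both mice. Among cells of 10000 to 20000 UMIs the shares were 23.9% against 17.8% and 37.5% against 25.4%. In the summed counts *EYFP* stood at 114 and 171 CPM against 44.3 and 74.96 (1.27 ± 0.12, edgeR adjusted p = 3.23e-24, DESeq2 adjusted p = 1.58e-07), and the change was 0.67 between cells of 10000 to 20000 UMIs. Over all thinned cells, neither the share nor the summed level overlapped between the states across mice. Between cells of 10000 to 20000 UMIs the shares did overlap across mice. There, cycling cells of replicate 1 stood at 23.9% and cells with 0 of 8 of replicate 2 at 25.4%. Both an *EYFP* and a *Krt14* UMI were found in 21.9% and 29.5% of cycling cells and in 9.87% and 12.8% of cells with 0 of 8.

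**Figure D4:**
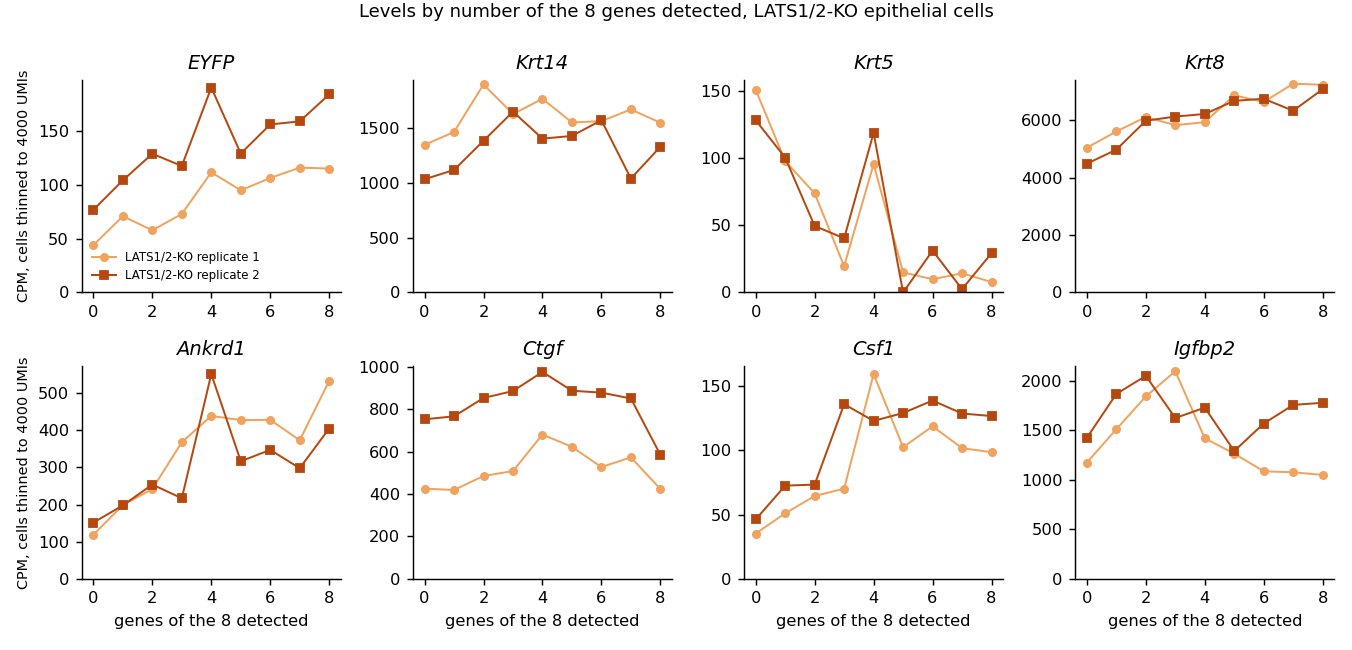
CPM of 8 genes in LATS1/2-KO epithelial cells thinned to 4000 UMIs (vertical axes, without TMM scaling) against the number of the 8 genes of the rule detected in a cell (horizontal axes), in replicate 1 and replicate 2, with each point the sum over the cells of that number. EYFP runs from 44.2 and 76.9 CPM at 0 of 8 to 115 and 184 at 8 of 8, Ankrd1 from 119 and 151 to 533 and 405, and Krt5 from 151 and 128 to 7.81 and 29.3.

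The targets of YAP and TAZ were called in both directions, as were all genes tested (25.3% higher and 24.0% lower). Of 21 targets tested, 7 were higher and 6 lower (median 0.01). DESeq2 called 1 higher and 2 lower, where it called 18.6% of all genes. *Ankrd1*, a cardiac ankyrin repeat protein and a direct YAP target, was higher, at 469 and 387 CPM in cycling cells against 119 and 148 (1.68 ± 0.10), and was still higher at 1.14 between cells of 10000 to 20000 UMIs. The matricellular genes *Ctgf* and *Cyr61*, the targets most used as readouts, differed little: *Ctgf* stood at 547 and 774 against 427 and 733 CPM (0.21 ± 0.09, edgeR adjusted p = 0.0417, DESeq2 adjusted p = 0.346) and *Cyr61* at 811 and 855 against 721 and 875 (0.07 ± 0.09). *Igfbp3* was lower (-1.94 ± 0.18), but not called between cells of 10000 to 20000 UMIs (-0.34, edgeR adjusted p = 0.426). All of these targets are compared here between cells of the same knockout gland, so the values say nothing of their level against CTL.

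Genes of the Hippo pathway and the TEAD factors were also called in both directions. Of 18 tested, 4 were higher and 6 lower, where 25.3% of all genes were higher and 24.0% lower. DESeq2 called 2 and 0, where it called 18.6% of all genes. *Tead1*, the DNA-binding partner of YAP and TAZ, stood at 189 and 187 CPM in cycling cells and 83.7 and 85.9 in cells with 0 of 8 (1.15 ± 0.11). *Vgll3*, a cofactor of TEADs, stood at 21.9 and 27.3 against 5.62 and 12.02 CPM (1.5005 ± 0.23). *Wwtr1*, which encodes TAZ, was lower by edgeR (-0.34 ± 0.11), as were *Lats1* (-0.999 ± 0.22) and *Lats2* (-0.51 ± 0.19), and none of these 3 was called by DESeq2 (adjusted p = 0.275, 0.103 and 0.402) or between cells of 10000 to 20000 UMIs.

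Genes of cell states seen in the knockout epithelium were mostly lower in the summed counts of its cycling cells. In cells with 0 of 8, few cells carry most of their transcripts, with a median of 1 and 2 UMIs of the list and a 90th percentile of 14 and 17. Cycling cells held a median of 3 and 5 UMIs and a 90th percentile of 16 and 18.2. A UMI of the list was found in 83.4% and 88.2% of cycling cells and 66.4% and 74.6% of cells with 0 of 8. The typical cycling cell thus did not hold less of the list as a whole, although most of its genes were lower in the sums. Of 7 tested, 5 were lower and 1 higher (median -1.26). *Crct1*, a gene of cornified epithelium, stood at 13.0 and 4.55 CPM in cycling cells against 63.5 and 118 (-3.20 ± 0.19). *Msln* (mesothelin) stood at 55.3 and 53.6 against 161 and 161 CPM (-1.56 ± 0.13), and *Wfdc3* at 51.2 and 51.1 against 122 and 164. *Igfbp2*, an IGF-binding protein, did not pass the test over all cells, at 1172 and 1697 against 1180.4 and 1389 CPM, and was lower between cells of 10000 to 20000 UMIs (-0.64). This list came from earlier results of these libraries and is no independent evidence of its direction.

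Signals from epithelium to stroma went in both directions. Of 22 tested, 8 were higher and 7 lower (median 0.24), where 25.3% of all genes were higher and 24.0% lower. *Csf1*, the growth factor of macrophages, was higher, at 114 and 130.1 CPM in cycling cells and 35.4 and 45.1 in cells with 0 of 8 (1.60 ± 0.13), and at 1.05 between cells of 10000 to 20000 UMIs. *Calca*, which encodes calcitonin and CGRP, was lower, at 2.60 and 1.52 against 80.1 and 38.5 CPM (-4.84 ± 0.29). *Postn* (periostin) was lower over all cells (-1.65 ± 0.12) and not called between cells of 10000 to 20000 UMIs (-0.39). *Thbs1* (thrombospondin-1) stood at 473 and 574 against 373 and 497 CPM (0.28 ± 0.09), a call made neither by DESeq2 (adjusted p = 0.189) nor between cells of 10000 to 20000 UMIs, and *Hbegf*, an EGFR ligand, did not pass the test (0.21 ± 0.10, edgeR adjusted p = 0.0727).

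Of 20 genes of focal adhesion and integrins, 6 were higher and 5 lower (median -0.01), where 25.3% of all genes were higher and 24.0% lower. *Zyx* (zyxin), an actin-binding protein of focal adhesions, was higher (0.53 ± 0.10), but not called between cells of 10000 to 20000 UMIs (0.25). The laminin chain genes *Lama3* and *Lamb3*, of the basement membrane of epithelia, were lower. *Lama3* stood at 5.20 and 3.04 CPM in cycling cells against 39.1 and 29.0, and *Lamb3* at 37.5 and 30.4 against 66.4 and 61.3. Both were also called by DESeq2 and between cells of 10000 to 20000 UMIs. *Itgb1* (integrin beta 1) stood at 532 and 517 against 551 and 505 CPM and did not pass the test.

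Immediate early genes, which tissue dissociation also induces, were lower in cycling cells. Of 15 tested, 14 were lower and 0 higher (median -1.21), and 14 were lower by DESeq2 and 14 between cells of 10000 to 20000 UMIs. *Fosb* stood at 221 and 266 CPM in cycling cells against 752 and 839 (-1.71 ± 0.10), *Jun* at 842 and 722 against 1997 and 1665 (-1.23 ± 0.09), and *Atf3* at 496 and 370.5 against 1179.9 and 1099.8 (-1.41 ± 0.09). These 3 encode transcription factors of the AP-1 and ATF families. The heat shock gene *Hspa1a* was lower too (-1.38 ± 0.10). Of 12 interferon response genes, 10 were lower and 1 higher (median -0.55), and DESeq2 called 3 and 1. *Ifit3* stood at 2.60 and 6.58 against 19.4 and 40.1 CPM (-2.71 ± 0.28) and *Irf7* at 36.7 and 58.7 against 77.0 and 109, while *Bst2* was higher (0.50 ± 0.10) but not called, at 0.01, between cells of 10000 to 20000 UMIs.

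Markers of other cell types moved with these results. Of the markers tested, 8 of 10 of fibroblasts, 7 of 7 of endothelium, 4 of 8 of immune cells and 2 of 2 of pericytes and adipocytes were lower in cycling cells, and 0 were higher. DESeq2 called 4 of fibroblasts, 6 of endothelium and 0 of the others. Summed over each list, fibroblast markers stood at 247 and 279.6 CPM in cycling cells against 650.5 and 607 in cells with 0 of 8, endothelial markers at 19.2 and 5.51 against 125 and 45.0, and immune markers at 90.1 and 63.1 against 189 and 73.5. *Cdh5*, *Emcn* and *Cldn5* had no UMI in the cycling cells of replicate 2, and *Ptprc* is 0 by the rule. Between cells of 10000 to 20000 UMIs, the endothelial sums were 19.7 and 6.51 CPM in cycling cells against 34.7 and 44.6, and the immune sums 43.0 and 53.4 against 56.0 and 57.8, with 0 immune genes called. The part of these cell types' RNA in the genes that were lower was not tested.

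To compare cells that showed the reporter in both states, the comparison was repeated within cells with at least 1 *EYFP* UMI in the deposited counts. These were 264 and 262 cycling cells against 202 and 309 with 0 of 8. There, 2198 of 8562 genes were called (25.7%), 1269 higher (14.8%) and 929 lower (10.9%). The cycle lists stayed high, with 35 of 39 S phase and 41 of 45 G2/M genes higher. *Ccnd1* was higher (1.48 ± 0.11) and *Cdkn1a* lower (-2.12 ± 0.31), while *Myc* was not called (-0.37 ± 0.16, edgeR adjusted p = 0.137). All 7 genes of the knockout state were lower (median -1.54), among them *Msln* (-3.02 ± 0.13) and *Igfbp2* (-1.34 ± 0.09). Of 20 YAP/TAZ targets, 1 was higher, *Ankrd1* (0.85 ± 0.19), and 7 were lower, among them *Ctgf* (-0.58 ± 0.10), with a median of -0.45. Of 19 focal adhesion genes, 9 were lower and 0 higher, among them *Itgb1* (-0.45 ± 0.09) and *Lama3* (-3.80 ± 0.37). *Csf1* was higher (1.02 ± 0.19) and 13 of 15 immediate early genes were lower. The luminal ER- list held 7 lower of 10 and the luminal ER+ list 6 lower of 8. These cells are part of those compared above, and a cell of low depth is less likely to show an *EYFP* UMI. The 2 states differ in depth, so they were not chosen at an equal *EYFP* level, and the part of this in the differences was not tested.

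Last, the difference between states was compared between genotypes. CTL replicate 1 held 19 cycling cells, fewer than the 20 set as the least for a test, so the states were taken as at least 3 of 8 against 0 of 8. This gave 23 and 67 CTL cells and 780 and 567 LATS1/2-KO cells in the upper state. edgeR called an interaction of genotype and state in 451 of 11870 genes (3.80%), with the difference higher in LATS1/2-KO in 226 (1.90%) and lower in 225 (1.90%). DESeq2 called 89 (0.750%). The tools shared 85, of which 16 were higher and 69 lower in LATS1/2-KO, so the even split of edgeR did not hold among them. Genes without a UMI in either CTL sum of the upper state (1107 of those tested) have no CTL fold change that can be read, *Krt14* and *Ankrd1* among them.

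The change of *Ccnd1* was larger in LATS1/2-KO than in CTL. In CTL it stood at 338 and 251 CPM in cells with 3 or more of 8 and 215 and 281 in cells with 0 of 8. In LATS1/2-KO it stood at 604 and 621 against 175 and 138. The difference of the log2 fold changes was 1.84 ± 0.21 (edgeR adjusted p = 4.47e-15, DESeq2 adjusted p = 0.00303). *Thbs1* stood at 59.7 and 18.2 CPM in the upper state of CTL (6 and 5 UMIs) against 217 and 161, and in LATS1/2-KO at 460.2 and 557 against 366 and 500.3 (difference 2.81 ± 0.36). *Gadd45b*, a stress response gene, differed in the same direction (1.505 ± 0.24). The growth factor gene *Adm* (adrenomedullin) and the potassium channel gene *Kcnn4*, chosen after their values were seen, differed by 4.98 ± 0.81 and 3.56 ± 0.50, with 0 and 1 UMIs of *Adm* and 3 and 2 of *Kcnn4* in the upper state of CTL.

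The reverse held for genes of hormone-receptor-positive cells. Of 10 luminal ER+ markers, edgeR called 7 lower and 0 higher in the difference and DESeq2 called 4. *Cited1* stood at 388 and 945 CPM in CTL cells with 3 or more of 8 and 419 and 379.8 in CTL cells with 0 of 8. Its LATS1/2-KO levels were 20.8 and 11.5 against 75.6 and 28.3 (difference -2.53 ± 0.24). The progesterone receptor gene *Pgr* and the pioneer factor gene *Foxa1*, chosen after their values were seen, differed by -3.84 ± 0.48 and -2.75 ± 0.41. *Gpx3* stood at 1710.0 and 3391 CPM in the upper state of CTL and at 37.5 and 7.24 in that of LATS1/2-KO (difference -3.91 ± 0.21). Cells with at least 3 UMIs of the hormone receptor genes were 36.8% and 86.8% of the CTL cells with 4 or more of 8 (7 of 19 and 46 of 53), against 3.18% and 1.80% of LATS1/2-KO cycling cells. In the cells with 0 of 8 the share was 33.8% and 33.4% in CTL and 18.8% and 5.44% in LATS1/2-KO, and the part of this share in the differences between genotypes was not tested. Among cycle genes, *Stmn1* (stathmin, chosen after its values were seen) rose less in LATS1/2-KO (-2.08 ± 0.19). Its upper state stood at 984 and 890.4 CPM in CTL and 685 and 719 in LATS1/2-KO. Cells with 0 of 8 stood at 37.3 and 38.0 CPM in CTL and at 115 and 125 in LATS1/2-KO, so a higher starting level is part of the smaller rise.

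**Figure D5:**
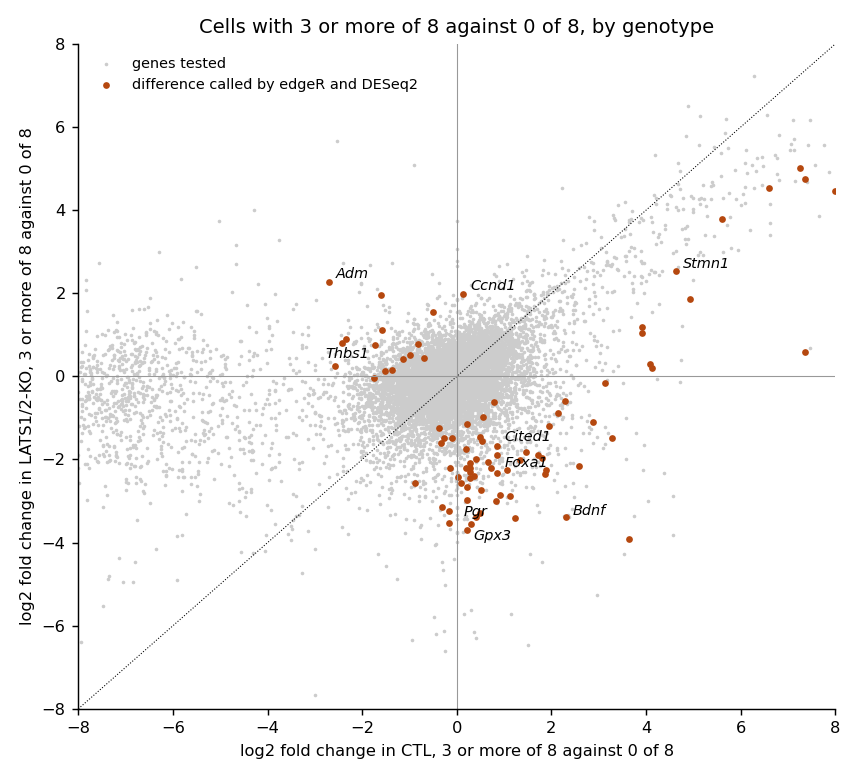
Log2 fold change between epithelial cells with 3 or more of 8 and with 0 of 8 in CTL (horizontal axis) and LATS1/2-KO (vertical axis), for genes tested (grey) and for the 85 genes whose difference between genotypes was called by edgeR and DESeq2 (colour), with the line of equal change dotted. The 69 genes lower in LATS1/2-KO lie under the line and the 16 higher ones above it. Of the genes tested, 1107 have 0 UMIs in the CTL cells with 3 or more of 8 of both mice and 141 lie outside the axes.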

How the data were processed

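The deposited files are UMI counts per gene and cell barcode that the authors made with Cell Ranger against mm10, and the values were used as deposited, with 28693 genes and 20324 barcodes, of which 18200 were kept. Rule, cell states and gene lists were chosen with earlier results of these data known. Cells were thinned to 4000 UMIs without replacement with a fixed seed, and counts were summed per mouse and state. Sums were tested with edgeR 4.0.16 (filterByExpr, TMM, quasi-likelihood F-test, mouse as block, which leaves 1 residual degree of freedom) in R 4.3.3, with DESeq2 1.42.0 as alternative. Both were run on simulated data with few changed genes and a fixed dispersion, and the difference between genotypes with edgeR only. Such data are unlike these, where many genes are called, so the simulation does not tell which tool's calls are right. Each mouse gave both states, so the block pairs sums of the same animal. Named were fixed genes of interest, per list the 4 members with the lowest adjusted p called in the same direction in both mice and up to 2 more with the largest mean CPM, and outside the lists the 10 largest and 10 smallest changes with at least 50 UMIs. No doublet caller was run, and leaving out the deepest 5% of barcodes was an alternative. Shares carry exact binomial 95% intervals, and promoters came from RefSeq tables of GRCm38.p6. Results for a few named genes are not reported here.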

Additional observations from a re-analysis of the deposited data

Results flagged for a closer look

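For 13 named genes the difference between the upper state and cells with 0 of 8 was itself different in LATS1/2-KO and CTL by edgeR and by DESeq2, on 23 and 67 CTL cells in the upper state. The difference of log2 fold changes, LATS1/2-KO minus CTL, was positive for *Ccnd1* (1.84), *Thbs1* (2.81) and *Gadd45b* (1.505). It was negative for *Cited1* (-2.53), *Ly6a* (-2.10), *Gpx3* (-3.91), *Calca* (-3.37) and *Jun* (-0.86). It was also negative for the cell division genes *Aurkb* (-3.89), *Hist1h1b* (-2.22), *Prc1* (-1.81), *Spc24* (-2.06) and 2810417H13Rik (-2.62). In each of these, cells with 0 of 8 stood higher in both LATS1/2-KO mice than in either CTL mouse. *Prc1* with 0 of 8 stood at 13.5 and 11.7 CPM in LATS1/2-KO and 2.68 and 4.20 in CTL. In the upper state, *Prc1* and *Aurkb* overlapped between genotypes, and *Hist1h1b*, *Spc24* and 2810417H13Rik were lower in both LATS1/2-KO mice. *Aurkb* had 0.173 and 0.113 CPM in CTL cells with 0 of 8, from 2 and 1 UMIs.

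Cells outside the epithelial rule, used above only as a comparison for *EYFP* and *Krt14*, also held 4 or more of the 8 genes. In LATS1/2-KO these were 26 of 764 cells in replicate 1 (3.40%, exact 95% interval 2.23 to 4.95) and 36 of 1947 in replicate 2 (1.85%, 1.30 to 2.55), against 5 of 482 (1.04%) and 3 of 291 (1.03%) in CTL.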

How the results depend on the processing

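DESeq2 called 2077 genes in place of 5518 between cycling cells and cells with 0 of 8, 468 in place of 2198 within *EYFP*-positive cells, and 89 in place of 451 for the difference between genotypes, where 18.0% were higher in LATS1/2-KO against 50.1% by edgeR. Cells of 10000 to 20000 UMIs gave 2410 calls, and *EYFP*-positive cells without thinning gave 5258. The difference in *EYFP*-positive share, 15.6 points, was 29.3 without thinning, 11.4 at 2000 UMIs and 10.5 with at least 2 *EYFP* UMIs, and 13.1 to 18.1 in single mice. The difference in the share of cycling cells, 16.0 points, was 5.53 when cells were thinned to 2000 UMIs, 12.6 at 4000 UMIs, 11.6 with at least 6 of 8, 12.8 without the deepest 5% of cells, 16.8 under 10% mitochondrial UMIs and 18.2 with at least 3 of 8, and 14.1 to 17.9 without 1 mouse. Named genes were not recomputed without the low-count filter, under 10% mitochondrial UMIs, with cells of 1 to 3 of 8 added to the fit, against cells with 1 to 3 of 8 or with another seed. In the settings in which each was recomputed, 134 of 169 kept their direction and, where a call could be fitted, the call, and 4 turned: *Acta2* (0.20 without contractile and hormone-receptor cells), and, in cells of 10000 to 20000 UMIs, *Igfbp2* (-0.64), *Krt14* (-0.13) and *S100a6* (-0.10). The cause was not tested. Without the replicate block, that is without pairing the states of a mouse, 4086 genes were called, and 2012 within *EYFP*-positive cells. The other settings over all cells gave 4047 to 8044 calls. Calls without 1 mouse could not be fitted, since no residual degrees of freedom are left, and the difference between genotypes at 4 or more of 8 was not run, with 19 cells in CTL replicate 1. With 1 library per mouse and 2 mice per genotype, depth and number of CTL cycling cells limit the comparison between genotypes.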
